A study of Mus musculus with 6 samples.

Results

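Timd2 encodes a cell surface receptor that takes up ferritin built of heavy chains. It was examined here together with 9 other genes of iron and heme handling: Trf, Tfrc, Slc11a2, Fth1, Ncoa4, Slc40a1, Ireb2, Alas1 and Hmox1. These 10 genes were chosen by symbol from the 46095 rows of a table of RNA sequencing counts from mouse kidney. Each has 1 row, and all 10 passed the filter on low counts that left 15367 genes for testing. The table holds 6 libraries, 3 from kidneys whose treatment label is DHT (dihydrotestosterone, a potent androgen) and 3 from kidneys whose treatment label is control. All 6 carry the strain label PCOS mouse on a C57BL/6 background, a name that refers to polycystic ovary syndrome, so only the treatment label parts the groups. The sources used here do not give age, dose or duration, or say whether the 3 replicates of a group were separate animals, and p-values then reflect only how these samples vary. Values by library follow the order of replicates 1, 2 and 3.

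Cells take up iron bound to transferrin through the transferrin receptor, release it from the endosome through the divalent metal transporter, store it in ferritin and export it through ferroportin. The kidney tubule also recovers filtered iron, transferrin and ferritin from the forming urine. When cytosolic iron is low, the iron regulatory proteins bind hairpins called iron-responsive elements. Binding at the start of a message blocks its translation, as for ferritin, and binding near its end protects it from decay, as for the transferrin receptor. Heme is built in a chain of enzymes that begins with aminolevulinate synthase, and heme oxygenase breaks it down to iron, carbon monoxide and biliverdin.

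Libraries held 15.05 to 19.33 counts in units of 1e6. Over all genes, 212 passed a Benjamini-Hochberg adjusted p of 0.05 as higher in DHT and 225 as lower by edgeR's quasi-likelihood test, which is 1.38%, 1.46% and, in either direction, 2.84% of those tested. The groups do not overlap, meaning that all 3 DHT libraries lie on one side of all 3 controls, for 29.8% of genes tested. DHT replicate 2 stood apart. The cytochrome P450 gene Cyp2j13, picked after its values were seen from 9 genes listed as an androgen check, was at 47.3 counts per 1e6 (CPM, scaled by the trimmed mean of M values, TMM) there, against 592 and 481 CPM in DHT replicates 1 and 3 and at most 1.11 CPM in the controls. Gusb, beta-glucuronidase, from the same list, showed a small gap, at 40.2 CPM there against 47.6 and 42.2 CPM. Summed proximal tubule markers were at 15340 to 20370 CPM in the controls and 16130 to 21090 CPM in DHT. None of the 12 markers was at 0, as the tissue label says. Single markers moved both ways, 4 with a log2 fold change above 0 and 8 below. Of the 12, edgeR called 0, 4 had an unadjusted p under 0.05 and DESeq2 called 4, the last 2 beside 23.9% and 10.5% of all genes. DHT lay above control in all libraries for 1 and below for 2. Summed distal and collecting duct markers were at 6810 to 7764 CPM under DHT and 8571, 9245 and 13710 CPM in the controls. Of these 10 markers none was at 0, and 0 were called by edgeR, with 1 at an unadjusted p under 0.05 and 1 called by DESeq2. DHT lay below control in all libraries for 0 of the 10 and above for 1, so no single marker showed the gap of the sum. Umod was at 7598 CPM in control replicate 3, against 2759 and 4471 CPM in control replicates 1 and 2 and 3097 to 4002 CPM under DHT. The part of these markers in the results was not tested. In whole kidney, fewer cells of a type and less RNA per cell cannot be told apart.

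Timd2 rose in DHT and was the 1 of the 10 genes that passed the test. Its level was 63.7, 34.3 and 54.0 CPM under DHT and 10.5, 8.51 and 6.83 CPM in the controls. Every DHT library lay above every control, with DHT replicate 2 the lowest of its group. The means were 50.6 ± 15 and 8.62 ± 1.85 CPM (SD, n = 3 each), a ratio of 5.88. The values rest on 2471 counts in DHT and 473 in control. The log2 fold change was 2.56 ± 0.26 (SE), with a 95% interval of 1.97 to 3.15 and an adjusted p of 0.0113 by edgeR. Timd2 ranked 11 of 15367 genes by p, and 28 of the 212 higher genes by fold change. With DHT replicate 3 left out its log2 fold change was 2.51 (edgeR adjusted p = 0.0911), and with control replicate 2 left out it was 2.55 (adjusted p = 0.0682), so the call was lost while the size was kept. The call was kept when any of the other 4 libraries was left out, and without DHT replicate 2 the log2 fold change was 2.77 (adjusted p = 0.000242).

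**Figure D1:**
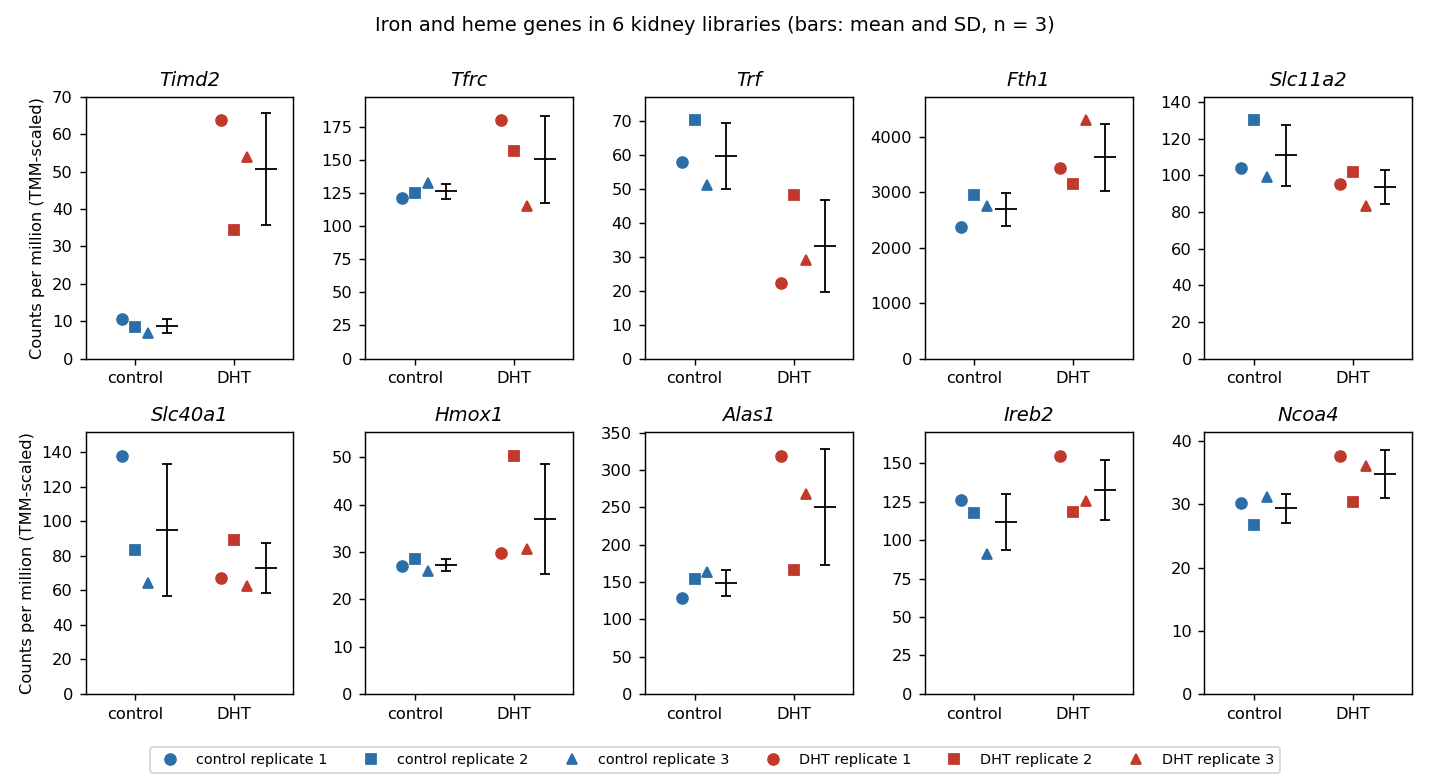
Level of each of the 10 genes in counts per 1e6 (TMM-scaled), 1 panel per gene with its own linear axis from 0. Points are the 3 control (blue) and 3 DHT (red) libraries, with the symbol giving the replicate, and the black bar is the mean with SD (n = 3). Timd2 at 34.3 to 63.7 CPM in DHT lies clear of 6.83 to 10.5 CPM in the controls, and the groups also do not overlap for Trf, Fth1, Hmox1 and Alas1.

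The Timd2 gene lies on chromosome 11, from 46668960 to 46707061 on the minus strand (GRCm38), with 3.47 kb of merged exons, none shared with another annotated gene. It belongs to the TIM family (T cell immunoglobulin and mucin domain), whose other mouse members sit beside it. Havcr1, or kidney injury molecule 1, the nearest relative, was at 0.883 ± 0.0562 CPM under DHT and 0.606 ± 0.541 CPM in the controls, from 43 and 36 counts (edgeR adjusted p = 0.74). Havcr2, a receptor of T cells and macrophages, was at 0.880, 3.57 and 1.72 CPM under DHT and 0.841 to 1.17 CPM in the controls (edgeR adjusted p = 0.266). Timd4, a phosphatidylserine receptor of macrophages, had 2 counts in DHT and 6 in control and was not tested. Of 8 protein-coding genes within 250 kb of Timd2, 4 could be tested and 0 were called by edgeR, DESeq2 or limma-voom, with 0 at an unadjusted p under 0.05. Med7, a Mediator subunit and the most abundant of them, was at 26.3 to 31.6 CPM under DHT and 25.0 to 29.4 CPM in the controls. The rise at Timd2 thus had no counterpart that passed the test among the neighbours measured.

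RefSeq start regions (GRCm38.p6, the 250 bases before a start) were found for 6 of the 10 genes. Both windows of Timd2 held no match, on either strand, to AGAACA (an arm of the androgen receptor's site), TGACNNNGC (the antioxidant core) or ACGTG (the hypoxia core). Of all 32851 windows, 16.1% hold AGAACA, 10.2% TGACNNNGC and 16.6% ACGTG, and no motif is part of another. Windows of Ireb2 and Ncoa4 held AGAACA, windows of Tfrc and Ncoa4 held ACGTG, and a window of Ncoa4 held TGACNNNGC. These are matches of letters in a short window and nothing more.

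By the correlation of log2(CPM + 1) over the 6 libraries, the 5 genes most like Timd2 among 14212 compared were Inmt, Ak4, Gm31105, Tomm22 and Smim19, with Pearson's r of 0.998, 0.998, 0.996, 0.996 and 0.995. The measure is a description: all 6 libraries share the difference between groups, and the position of DHT replicate 2 between the controls and the other DHT libraries weighs in it. Inmt, an N-methyltransferase of indolethylamines, was at 1437, 635 and 1250.0 CPM under DHT and 69.4 to 153 CPM in the controls, and rose by a log2 fold change of 3.34 ± 0.40 (edgeR adjusted p = 0.0156). Ak4, a mitochondrial adenylate kinase, rose from 316 ± 27.4 to 695 ± 96.4 CPM (adjusted p = 0.0185). Gm31105 rose from 2.73 ± 0.309 to 8.30 ± 2.01 CPM (adjusted p = 0.029). Tomm22, a subunit of the protein import pore of mitochondria, and Smim19, a small membrane protein, did not pass (adjusted p = 0.0696 and 0.0523).

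Iron-responsive elements are shown next because several of the genes below carry them. GENCODE M21 transcripts were searched for a bulged C, 5 bases, the loop CAGTGN and 5 bases that pair with the first 5 (Watson-Crick or G with T). Such a hairpin stood in an untranslated region of 132 of 13078 tested genes with a protein-coding transcript, or 1.01%, and of 3 of the 10 genes: Fth1 and Slc40a1 in the 5′ region and Tfrc in the 3′ region. No such hairpin was found in Slc11a2 with this pattern, which draws nothing about its regulation. Each 27-base site is written 5′ to 3′ on the gene's strand, with T for U and the first 5 bases of the loop in capitals, and the light chain gene Ftl1 is added for comparison.
Fth1, chr19:9982733-9982759, plus strand: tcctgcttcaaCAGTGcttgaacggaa
Ftl1, chr7:45459780-45459806, minus strand: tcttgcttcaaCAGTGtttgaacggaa
Slc40a1, chr1:45925466-45925492, minus strand: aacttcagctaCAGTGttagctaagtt
Tfrc, chr16:32631220-32631246, plus strand: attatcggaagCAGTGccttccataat
Tfrc, chr16:32631599-32631625, plus strand: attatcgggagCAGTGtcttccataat
Tfrc, chr16:32631664-32631690, plus strand: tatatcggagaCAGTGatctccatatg
Tfrc, chr16:32631711-32631737, plus strand: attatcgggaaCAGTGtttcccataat
The capitals are the same in all of them because the search required them. None of these 4 genes passed the test between groups.

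Trf, transferrin, the carrier of iron in plasma, had the lowest fold change of the 10 and did not pass. It was at 22.2, 48.2 and 29.0 CPM under DHT and 57.8, 70.1 and 51.0 CPM in the controls. All DHT libraries lay below all controls, DHT replicate 2 by a small margin. The log2 fold change was -0.85 ± 0.27 (95% interval -1.49 to -0.21, edgeR adjusted p = 0.121). Without DHT replicate 2 it was -1.23, and the gene was called (adjusted p = 0.00879). Trf shares 63.5% of its exon bases with the annotated gene Gm20425 on the same strand, and reads of the 2 cannot be told apart.

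Tfrc, the transferrin receptor, was at 180, 157 and 115 CPM under DHT and 121, 125 and 132 CPM in the controls. The groups overlap, with DHT replicate 3 the lowest of all 6 libraries. Its log2 fold change was 0.25 ± 0.17 (95% interval -0.12 to 0.63, edgeR adjusted p = 0.38). Slc11a2, the divalent metal transporter that moves iron out of endosomes and across the apical membrane, was at 95.4, 102 and 83.4 CPM under DHT and 104, 130 and 99.1 CPM in the controls. Here too the groups overlap, with a log2 fold change of -0.25 ± 0.14 (95% interval -0.57 to 0.08, adjusted p = 0.322).

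Of the storage genes, Fth1 encodes the ferritin heavy chain, the form of ferritin that the Timd2 receptor binds. Fth1 was at 3436, 3141 and 4290 CPM under DHT and 2365, 2951 and 2753 CPM in the controls. Every DHT library lay above every control, but the test was not passed: the log2 fold change was 0.43 ± 0.20 (95% interval -0.02 to 0.88, edgeR adjusted p = 0.224). Ftl1, the ferritin light chain, went the other way without passing, at 1407, 2235 and 1493 CPM under DHT and 2438, 2505 and 2076 CPM in the controls (log2 fold change -0.45 ± 0.22, adjusted p = 0.25). The ratio of Fth1 to Ftl1 counts within a library, a comparison chosen after its values were seen, was 2.44, 1.41 and 2.87 under DHT and 0.970, 1.18 and 1.33 in the controls. The means were 2.24 ± 0.755 and 1.16 ± 0.179 (SD, n = 3 each). As the ratios do not overlap between groups, an exact two-sided permutation p could only be 0.10, the smallest that 3 against 3 can give. It adds nothing to the values. Ftl1 is uncertain, since the annotated Ftl1-ps1 is 99.6% identical over 94% of its transcript and Gm10252 covers 26.5% of its exon bases on the opposite strand. Ncoa4, the receptor that delivers ferritin to lysosomes for iron release, was at 37.7, 30.4 and 36.1 CPM under DHT and 30.3, 26.8 and 31.2 CPM in the controls. Its groups overlap, and its log2 fold change was 0.24 ± 0.13 (95% interval -0.05 to 0.53, adjusted p = 0.283).

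Slc40a1, or ferroportin, the exporter of iron, varied most among the controls. It was at 67.3, 89.2 and 62.2 CPM under DHT and 138, 83.2 and 64.4 CPM in the controls. Control replicate 1 was the highest and the groups overlap, with a log2 fold change of -0.38 ± 0.28 (95% interval -1.04 to 0.27, edgeR adjusted p = 0.442). Hamp, the gene of hepcidin, the hormone that removes ferroportin from membranes, had 0 counts in all libraries and was named after its values were seen. Ireb2, the iron regulatory protein IRP2, which binds the hairpins shown above, was at 155, 118 and 126 CPM under DHT and 126, 118 and 91.1 CPM in the controls. Its groups overlap, and its log2 fold change was 0.25 ± 0.16 (95% interval -0.11 to 0.62, adjusted p = 0.37).

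Alas1, the aminolevulinate synthase that starts heme synthesis in most tissues, had the highest fold change after Timd2. It was at 319, 166 and 267 CPM under DHT and 129, 154 and 163 CPM in the controls. The groups do not overlap, but DHT replicate 2 lay just above control replicate 3. The log2 fold change was 0.76 ± 0.23 (95% interval 0.23 to 1.28, edgeR adjusted p = 0.101). Without DHT replicate 2 it was 0.97 and the gene was called (adjusted p = 0.0112). An annotated gene on the opposite strand, 4930500F10Rik, covers 7.53% of the exon bases of Alas1.

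Hmox1, the inducible heme oxygenase, was at 29.7, 50.4 and 30.7 CPM under DHT and 27.1, 28.5 and 26.0 CPM in the controls. DHT replicate 2 stood far above the other 5 libraries, which lay within 26.0 to 30.7 CPM. The log2 fold change was 0.44 ± 0.20 (95% interval -0.02 to 0.90, edgeR adjusted p = 0.227), and without DHT replicate 2 it was 0.14 (adjusted p = 0.501). The same library was highest in hemoglobin RNA: 6 hemoglobin genes summed to 67.3 CPM there, against 2.51 and 4.33 CPM in DHT replicates 1 and 3 and 7.62 to 34.7 CPM in the controls. It was also highest in macrophage markers, whose 14 genes summed to 515 CPM, against 138 and 298 CPM in DHT replicates 1 and 3 and 143 to 282 CPM in the controls. None of the 14 was at 0 in all libraries, though Cd163 and Laptm5 stayed below 0.5 CPM. These 2 and Csf1r were not highest in DHT replicate 2. Csf1r was at 60.7 CPM there, against 71.6 and 90.7 CPM in control replicates 2 and 3. Of the 12 markers tested, 11 had a log2 fold change above 0 and 1 below, with a median of 0.85. Of these, 0 were called by edgeR, with 3 at an unadjusted p under 0.05 and 2 called by DESeq2. The last 2 counts stand beside 23.9% and 10.5% of all genes. Of 11 red blood cell markers, Hbb-b2 was at 0 in every library, and the sum of the list was 60.8, 126 and 59.4 CPM under DHT and 90.4 to 161 CPM in the controls. The anion exchanger Slc4a1, which the collecting duct also makes, gave 57.0, 54.5 and 54.5 CPM of that sum under DHT and 67.5, 68.1 and 153 CPM in the controls, so that it held most of the sum in every library but DHT replicate 2, where the hemoglobin genes held the larger part. The part of blood or macrophages in the level of Hmox1 was not tested.

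**Figure D2:**
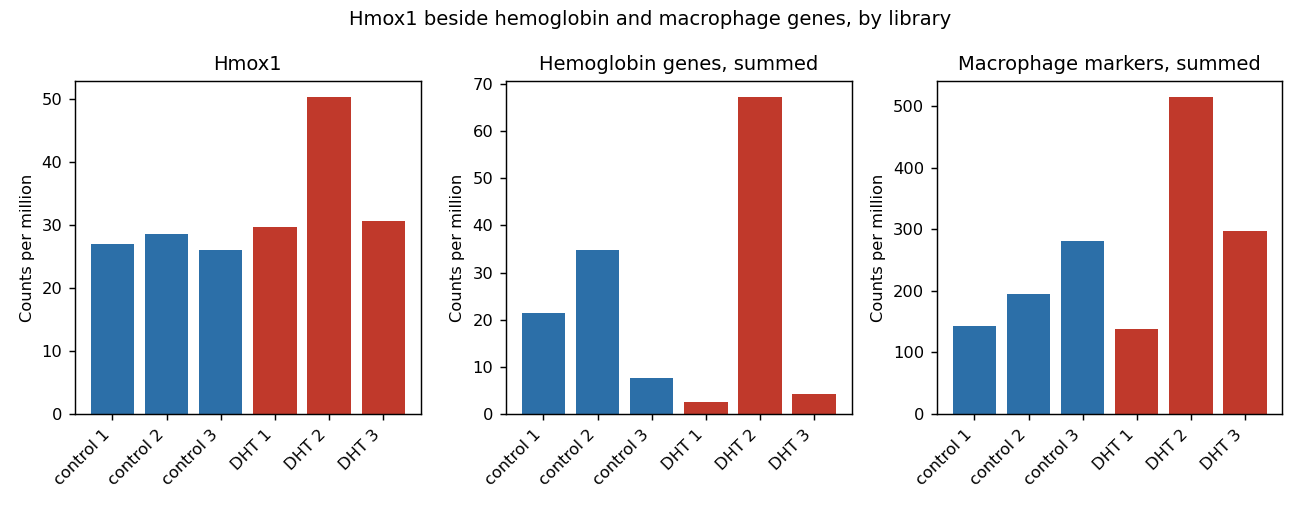
Counts per 1e6 (TMM-scaled, linear axis from 0) of Hmox1, of 6 hemoglobin genes summed and of 14 macrophage markers summed, 1 bar per library, controls in blue and DHT in red. DHT replicate 2 is the highest bar in each panel, at 50.4, 67.3 and 515 CPM.

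Of the 10 genes, 1 was called higher and 0 lower, against 1.38% of all genes called higher and 1.46% called lower. The groups did not overlap for 4 genes with DHT above and 1 with DHT below, against 29.8% of all genes in either direction. The median log2 fold change was 0.25, beside 0.003 over all genes tested. At an unadjusted p under 0.05 there were 3, against 23.9% of all genes. DESeq2 called 3, Timd2 and Alas1 higher and Trf lower, against 10.5% of all genes. The 2 added by DESeq2 are those added without DHT replicate 2.

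**Figure D3:**
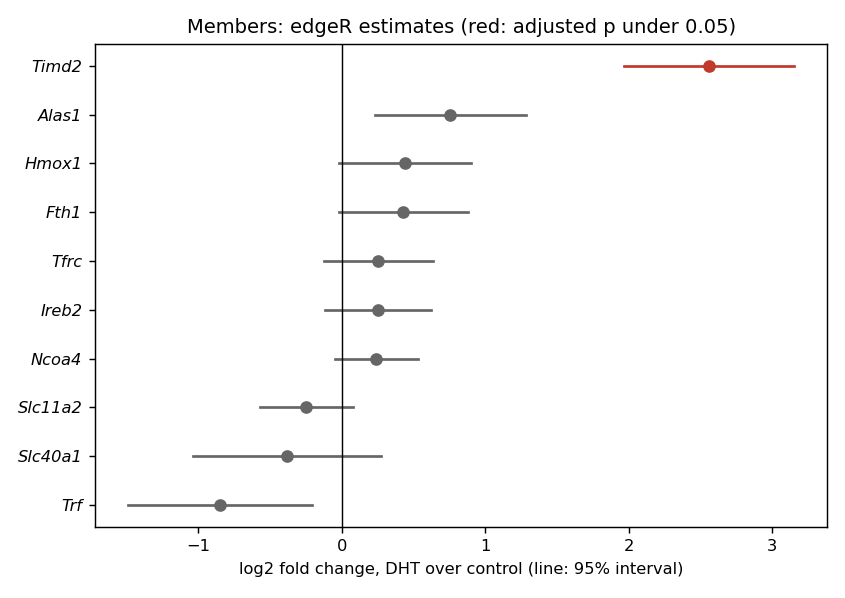
Log2 fold change of each of the 10 genes, DHT over control, with its 95% interval from the edgeR fit (n = 3 against 3), ordered by size. Red marks an adjusted p under 0.05: Timd2 at 2.56 is the 1 called gene. The intervals of Alas1 and Trf also lie off 0, but their adjusted p of 0.101 and 0.121 did not pass.

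Levels were compared between genes per kb of merged exon, the union of exons over all annotated transcripts. This length can exceed that of the messages present, and not equally for each gene, so the order depends on the annotation. Fth1 was by far the most abundant of the 10, at 775 ± 85.9 CPM per kb in control and 1044 ± 172 CPM per kb in DHT. In control it was followed by Alas1 (24.1 ± 2.86), Tfrc (20.4 ± 0.940), Trf (18.0 ± 2.91), Slc11a2 (17.5 ± 2.61), Hmox1 (15.5 ± 0.721), Ireb2 (11.8 ± 1.92), Slc40a1 (10.6 ± 4.25), Ncoa4 (3.14 ± 0.248) and Timd2 (2.48 ± 0.532), all in CPM per kb. Neighbours in that order overlap within 1 SD except Fth1 and Alas1, Hmox1 and Ireb2, and Slc40a1 and Ncoa4. Timd2 was thus the lowest of the 10 in control, with an SD range that overlaps that of Ncoa4. In DHT it stood at 14.6 ± 4.32 CPM per kb, at rank 6, between Slc11a2 (14.7 ± 1.49) and Ireb2 (14.0 ± 2.05), from both of which it did not differ beyond the spread. Trf went from rank 4 in control to rank 8 in DHT, at 9.98 ± 4.06 CPM per kb.

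**Figure D4:**
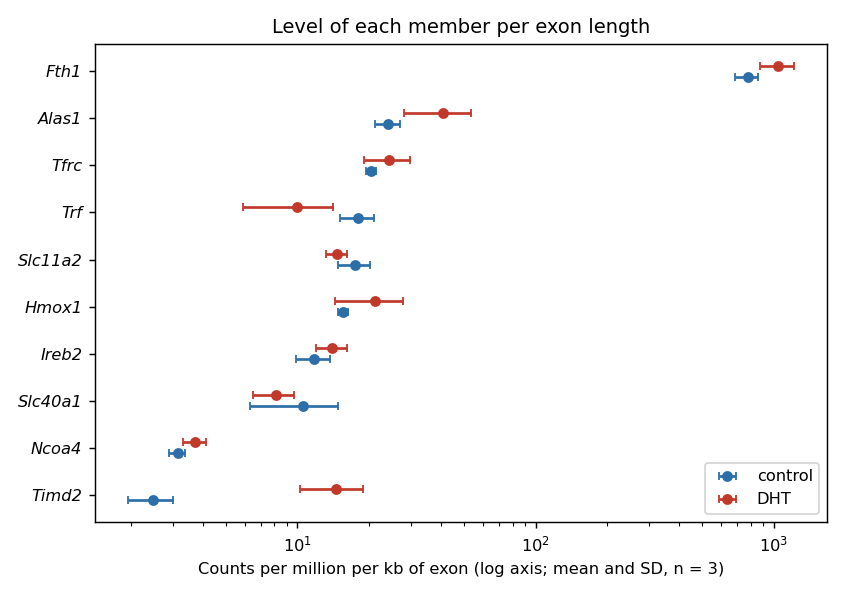
Level of each gene in counts per 1e6 per kb of merged exon (log axis; mean and SD, n = 3), controls in blue and DHT in red, ordered by the control level. Fth1 stands apart at 775 and 1044 CPM per kb, and Timd2 moves from the lowest place at 2.48 to 14.6 CPM per kb.

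A wider set of 109 iron and heme genes in the table, which includes the 10, had 100 members that could be tested. Of these, 4 were higher and 1 lower, beside 2.84% called over all genes, and the median log2 fold change was 0.14. The count was 13 with DESeq2 and 2 with limma-voom, and it ranged from 0 to 10 when single libraries were left out, with 10 called when DHT replicate 2 was left out, 1 when either DHT replicate 1 or control replicate 3 was, and 0 when either DHT replicate 3 or control replicate 2 was. Over all genes, 10.5% were called with DESeq2, 2.09% with limma-voom and 7.76% by edgeR without DHT replicate 2, so each count is near the share over all genes in the same fit. In the fits with 0, 19 and 21 genes had an unadjusted p under 0.05.

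In heme breakdown and transport, edgeR called 2 of 13 genes tested as higher, Blvra and Blvrb, and 0 as lower. Over all genes, 1.38% were called higher and 1.46% lower. The list had 4 at an unadjusted p under 0.05 and 2 called by DESeq2, beside 23.9% and 10.5% of all genes. DHT lay above control in all libraries for 5, beside 14.8% of all genes, and below for 0. Blvra, biliverdin reductase A, which makes bilirubin, was at 101, 69.5 and 108 CPM under DHT and 59.6, 48.9 and 43.7 CPM in the controls. Blvrb, biliverdin reductase B, also a flavin reductase, was at 15.2, 17.5 and 16.97 CPM under DHT and 9.47, 7.11 and 9.55 CPM in the controls. Neither overlaps between groups. Blvra rose by a log2 fold change of 0.87 ± 0.19 (edgeR adjusted p = 0.0491) and Blvrb by 0.93 ± 0.17 (adjusted p = 0.0376).

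In heme synthesis edgeR called 1 of 18 genes tested as lower and 0 as higher, beside 1.46% and 1.38% of all genes. At an unadjusted p under 0.05 there were 7, beside 23.9% of all genes. DESeq2 called 3, Alas1 among them, beside 10.5% of all genes. DHT lay above control in all libraries for 5 of the 18, beside 14.8% of all genes tested, and below for 1. Ppox, protoporphyrinogen oxidase, the last step but one of the chain, was at 33.2, 29.6 and 29.8 CPM under DHT and 41.5, 44.4 and 47.3 CPM in the controls. The groups do not overlap, and it fell by 0.52 on the log2 scale (SE 0.11, edgeR adjusted p = 0.0468). B4galt3 covers 17.5% of the exon bases of Ppox on the opposite strand, and as strand use is not known the 2 cannot be told apart. Of the 5 with DHT above, Urod and Cpox are further steps of the chain and did not pass, with Urod at 65.8 to 92.4 against 54.6 to 60.1 CPM and Cpox at 85.4 to 117 against 48.1 to 83.7 CPM (edgeR adjusted p = 0.13 and 0.16). These 2 were chosen after their values were seen. For the rest of the list, other steps of the chain included, the groups overlap.

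In iron storage and release edgeR called 1 of 8 genes tested as higher and 0 as lower, beside 1.38% and 1.46% of all genes. The list had 2 at an unadjusted p under 0.05 and 2 called by DESeq2, beside 23.9% and 10.5% of all genes. The gene that edgeR called was Pcbp3, a poly(rC)-binding protein of the family that includes iron chaperones. It was at 33.6, 22.1 and 34.4 CPM under DHT and 17.2, 17.5 and 15.9 CPM in the controls, with no overlap between groups (log2 fold change 0.83 ± 0.18, edgeR adjusted p = 0.0489). The 4 calls on Blvra, Blvrb, Ppox and Pcbp3 were each lost when replicate 1 or 3 of DHT, or replicate 2 or 3 of the controls, was left out, with adjusted p of 0.0767 to 0.166, while the log2 fold changes in those fits were 0.725 to 0.99 for the 3 higher genes and -0.58 to -0.48 for Ppox. Without control replicate 1 the calls on Blvrb, Ppox and Pcbp3 were lost as well (adjusted p = 0.0512, 0.0616 and 0.0775), and without DHT replicate 2 that on Ppox was (adjusted p = 0.0512).

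Iron uptake had 23 genes tested and a median log2 fold change of -0.19. Timd2 was the 1 called by edgeR, beside 2.84% called over all genes. The list had 6 at an unadjusted p under 0.05 and 2 called by DESeq2, beside 23.9% and 10.5% of all genes. Its next 2 by p were Slc22a17, a receptor for lipocalin 2, at 29.9 ± 2.50 CPM under DHT and 40.2 ± 3.84 CPM in the controls, and Cybrd1, a ferric reductase, at 2.07 ± 0.163 and 0.927 ± 0.182 CPM from 101 and 51 counts (edgeR adjusted p = 0.0876 and 0.0906). Iron export and hepcidin had 8 tested and 0 called by edgeR. At an unadjusted p under 0.05 there were 2, and DESeq2 called 1, both near the shares of 23.9% and 10.5% over all genes. Neo1, neogenin, a receptor in the control of hepcidin, was at 53.3 ± 1.09 CPM under DHT and 71.1 ± 2.73 CPM in the controls (adjusted p = 0.0602). Iron sensing had 9 tested and 0 called by edgeR or DESeq2, with 0 at an unadjusted p under 0.05. Aco1, the iron regulatory protein IRP1, was at 434 ± 63.2 and 354 ± 34.8 CPM (adjusted p = 0.302), and Zfp36, which destabilises messages and acts on iron genes when iron is scarce, was at 61.5 ± 15.7 and 43.0 ± 13.6 CPM (adjusted p = 0.276).

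Iron-sulfur cluster assembly, the main mitochondrial use of iron beside heme, had 21 genes tested and 0 called by edgeR, with 10 at an unadjusted p under 0.05 and 3 called by DESeq2. Over all genes these shares are 23.9% and 10.5%, so the DESeq2 count is near that over all genes. Of the 21, 10 had DHT above control in all libraries, beside 14.8% of all genes tested, and 1 below, and the median log2 fold change was 0.32. Lyrm4, a partner of the cysteine desulfurase, was at 24.6, 17.9 and 25.4 CPM under DHT and 14.9, 13.1 and 13.3 CPM in the controls (log2 fold change 0.72 ± 0.17, edgeR adjusted p = 0.0568). Ciao1, of the cytosolic assembly complex, was at 79.5 ± 10.2 and 56.9 ± 6.24 CPM (adjusted p = 0.0829). Members share the same 6 libraries and are not independent.

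**Figure D5:**
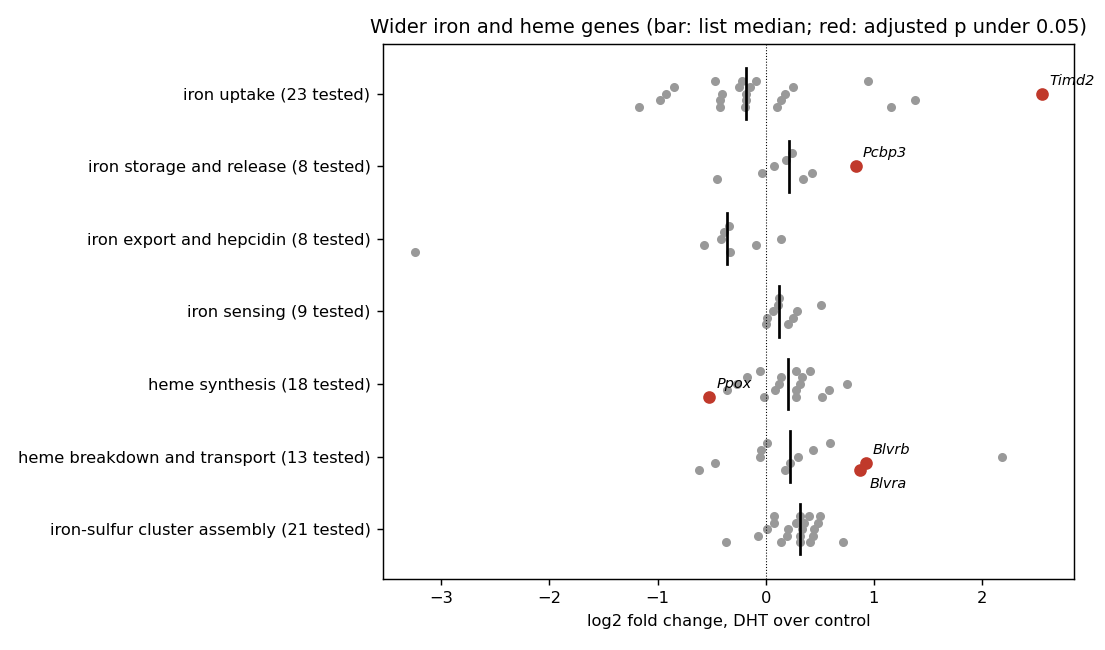
Log2 fold change, DHT over control, of each tested gene in 7 lists of iron and heme genes, 1 point per gene, with the list's median as a black bar and genes with an edgeR adjusted p under 0.05 in red. Timd2 at 2.56 lies far from the rest of the uptake genes, whose list has a median of -0.19, and the grey point at -3.25 is Tmprss6.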

How the data were processed

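The values in the deposited table are raw counts, 1 row per gene symbol, with no normalization. The submitters' processing notes name HISAT2 2.0 and the build mm10. The sources used here do not give the counter, annotation, strand setting or treatment of reads that fit several places. Per the labels' protocols, RNA was extracted with Trizol. Columns were matched to samples by title. Rows that bear dates in place of symbols (27, with 0.142% of counts) went unnamed.

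The fit used edgeR 4.0.16 (R 4.3.3): filterByExpr (minimum count 10, minimum total 15), TMM scaling and a robust quasi-likelihood test of DHT against control, with Benjamini-Hochberg adjustment over all 15367 genes. SE values are those the F statistic implies. The method was tested on simulated data. The alternatives tried were total counts, median-ratio size factors, other filters, no robust step, a replicate block, DESeq2 1.42.0, limma-voom (limma 3.58.1) and leaving out each library. Gene models were GENCODE M21 on GRCm38, the assembly of mm10; near-identical transcripts (at least 95% identity over 50%) came from BLAST 2.17.0+.

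The 10 genes and the lists were chosen with earlier results of these data known. Named genes are the 10, every called gene of a wider list or otherwise its 2 smallest p, the TIM family and the 5 genes most like Timd2. Others, chosen after their values were seen, are said to be so, are markers or neighbours of Timd2, or are given beside a gene of the same role (Ftl1 and Gusb).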

Additional observations from a re-analysis of the deposited data

How the results depend on the processing

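The 10 genes kept the direction of their log2 fold change under all 14 alternatives. The number called among them was 3 with DESeq2 and 1 with each other tool or setting, and 0 to 3 when single libraries were left out; in the fits without DHT replicate 3 or control replicate 2, which called 0 of the 10 with edgeR, 4 and 2 had an unadjusted p under 0.05. The log2 fold change of Timd2 ranged from 2.36 to 2.77. The wider iron and heme count of 5 became 3 with total counts, 3 with no robust step, 2 with limma-voom, 13 with DESeq2 and 0 to 10 without single libraries. The count over all genes, 437, became 852 with no low-count filter, 1616 with DESeq2 and 0 to 1224 without single libraries (0 without DHT replicate 3, where 2763 genes had an unadjusted p under 0.05). Total counts moved the median over all genes to -0.10 and split the calls 132 higher to 208 lower, beside 212 to 225. The log2 fold change of Havcr1 ran from -0.049 without control replicate 1, which had 0 counts of it, to 1.11 without control replicate 3 among the fits that leave out a library, and was 1.5 with limma-voom. The same 5 genes were most like Timd2 with a pseudocount of 0.5. With a replicate block, 1 of the 10, 1 of the wider genes and 85 genes in all were called, and Timd2 kept its call (edgeR adjusted p = 0.0176). Whether replicate numbers pair the samples is not known. The correlations of same-numbered deviations from group means were 0.089, -0.171 and 0.063, and not every sample correlated best with its own number. With 3 libraries per group, whose deviations sum to 0, these correlations cannot decide it. Tmprss6 and other genes with under 100 counts in a group are limited by counting error as well as by spread.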

Other observations

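Some iron genes outside the main set had 1 library that stood apart from the others of its group. Except for Tmprss6 they were chosen after their values were seen. Tmprss6, a protease that restrains hepcidin, was at 0.251, 0.438 and 1.25 CPM under DHT (replicates 1, 2 and 3) and 0.369, 11.8 and 6.43 CPM in control replicates 1, 2 and 3, from 32 and 364 counts. Control replicate 1 lay within the DHT range, and the gene did not pass (log2 fold change -3.25 ± 1.15, edgeR adjusted p = 0.155). Without control replicate 1 it was called (log2 fold change -3.80, adjusted p = 0.0253). Steap3, the ferric reductase of the transferrin endosome, showed the same order of controls, at 5.90, 27.6 and 26.4 CPM in control replicates 1, 2 and 3 and 6.14 to 12.7 CPM under DHT (edgeR adjusted p = 0.275).

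Hp, haptoglobin, which binds free hemoglobin, and Slc11a1, the metal transporter of phagosomes, were high in DHT replicate 2, the library highest in hemoglobin and macrophage genes. Hp was at 12.7 CPM there and at 0.691 to 1.19 CPM in the other 5 libraries. Slc11a1 was at 16.2 CPM there and at 1.97 to 3.56 CPM in the other 5. Adjusted p by edgeR was 0.277 for Hp and 0.285 for Slc11a1. The part of blood or macrophages in these values was not tested.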
